A study of Mus musculus with 12 samples.

Results

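Mature B cells that lacked both BAX and BAK1 were compared with young wild-type B cells, using 6 of the 12 libraries of the series. The members were chosen by the sample labels alone: 3 libraries labelled apoptosis-resistant, of genotype Bak-/- BaxD/D, and 3 libraries of wild-type mice of 9, 10 and 11 weeks. The deficient mice were 10 weeks old. All were on the C57BL/6 background, and all cells were sorted from bone marrow as B220high, IgM+ and CD93-. The libraries of another group, Bak-/- Baxfl/fl, also of 10 weeks and labelled apoptosis-sensitive, are given beside them for context, because these cells lacked BAK1 but kept an intact Bax gene. The remaining 3 libraries came from wild-type mice of 98, 99 and 100 weeks and entered only the gene filter, the scaling between libraries and the estimate of spread. The apoptosis-sensitive libraries entered these steps as well. The recombinase that deleted Bax, the cells in which it was active and the exons removed are not stated in the labels used here. Neither is the number of generations of crossing to C57BL/6.

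BAX and BAK1 are the effectors of mitochondrial apoptosis. When activated by BH3-only proteins such as PUMA and BIM, they form pores in the outer mitochondrial membrane, cytochrome c is released and the executioner caspases are switched on. BCL-2, MCL-1 and their relatives hold the effectors and the BH3-only proteins in check. Mature B cells depend on this balance for their survival, and loss of both effectors leaves a cell unable to die by this route even when its death signals are on.

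The groups shared no collection date, so genotype and date cannot be told apart in this comparison. The labels date the wild-type libraries to 24 March, 11 April and 12 April, and the deficient libraries to 30 May, 31 May and 7 May. The label of wild-type replicate 1 gives the year as 2006 and those of the other 5 as 2016. The apoptosis-sensitive libraries carry the dates of the deficient ones. Total counts per library ran from 13474162 to 23539764 among the 6. Log CPM (reads of a gene scaled to the TMM-adjusted size of its library) correlated at 0.929 to 0.975 between wild-type replicates and at 0.977 to 0.991 between deficient replicates. Between libraries of the 2 groups it correlated at 0.916 to 0.985. Wild-type replicate 2 was closer to deficient replicates 1 and 2 (0.984 and 0.985) than to wild-type replicates 1 and 3 (0.941 and 0.975). Wild-type replicate 1 stood apart, for instance with Ms4a1, which encodes CD20 and was chosen after its values were seen, at 799 CPM against 1350 to 1965 in the other 8 libraries of the 3 groups. Wild-type replicate 3 carried more RNA of granulocyte and erythroid markers: the 10 granulocyte genes summed to 854 CPM there, against 30.4 and 109.7 in the other wild-type libraries and 33.0 to 76.6 in the deficient ones. The 8 erythroid genes summed to 391 CPM there, against 33.4 and 41.6, and 39.4 to 94.0 in the deficient libraries. The 10 B cell markers summed to 21470 to 24260 CPM in wild-type and 19970 to 20390 CPM in deficient libraries. The 11 T cell genes summed to 38.4 to 75.1 CPM in wild-type and 42.1 to 54.1 CPM in deficient libraries, most of it Lck. Of these genes 3 were separated, with every deficient library above every wild-type library, against 6.64% of all genes. The list's median log2 fold change was 1.30. The levels were low: Trac was at 0.128 to 0.330 CPM in wild-type and 0.545 to 0.965 CPM in deficient libraries, Cd4 stayed under 2 CPM, and Cd3d and Cd3e were at or near 0. The part of T cell RNA in the results was not tested. RNA of Cd93, whose protein the sort excluded, was present at 29.3 to 36.1 CPM in wild-type and 16.1 to 21.1 CPM in deficient libraries. In bulk RNA of this kind, fewer cells of a type and less RNA per cell cannot be told apart.

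Bax was measured first, because it checks the labels. Its level was 98.6, 54.0 and 48.7 CPM in the wild-type libraries and 4.97, 6.42 and 8.36 CPM in the deficient ones. The groups were far apart, and every deficient library still held some Bax reads. Bax (Entrez 12028, chr7:45461695-45466903, GRCm38.p6) was 9.28-fold lower in deficient cells, with a log2 fold change of -3.34 ± 0.39 (SE, n = 3 and 3) and an adjusted p of 0.00664. Adjusted p values in this text are from edgeR's quasi-likelihood test with Benjamini-Hochberg adjustment over all 13592 genes tested, with a threshold of 0.05, unless another tool is named. In the apoptosis-sensitive libraries, whose Bax was intact, the level was 55.7, 56.3 and 100.1 CPM, in the wild-type range or just above it.

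Bak1 (Entrez 12018, chr17:27019812-27028627) was at 31.7, 40.8 and 47.9 CPM in wild-type cells and at 10.8, 14.4 and 6.98 CPM in deficient cells. The groups did not overlap, but the fall, with a log2 fold change of -1.91 ± 0.34 (SE, n = 3 and 3), missed the threshold at an adjusted p of 0.0593 by edgeR. In apoptosis-sensitive cells, which also lacked BAK1, Bak1 reads were at 9.64, 12.5 and 6.17 CPM, within or just below the range of the deficient libraries. The plot of the targeted genes shows that Bax reads were low in the deficient group alone, while Bak1 reads were low in both Bak-/- groups.

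**Figure D1:**
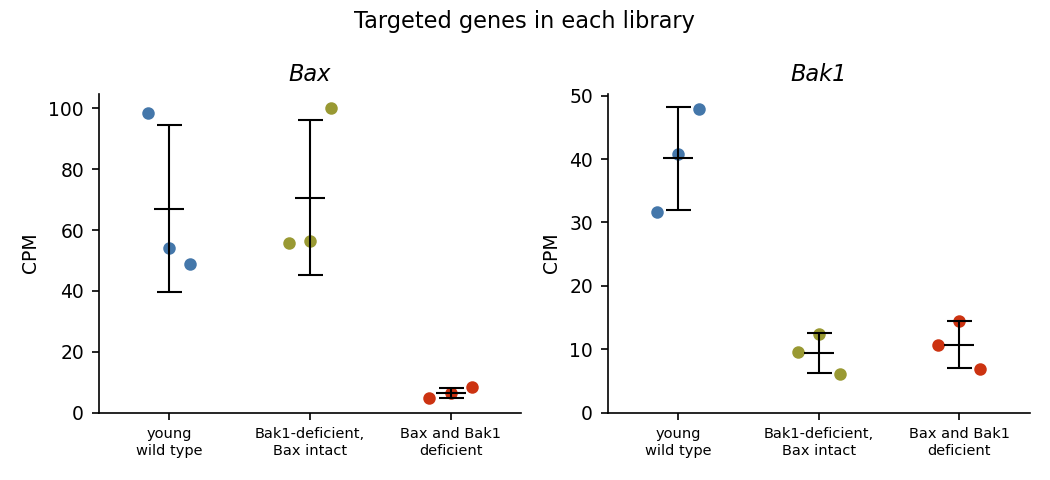
CPM of Bax and Bak1 in each library of young wild-type, Bak1-deficient Bax-intact and Bax- and Bak1-deficient B cells. Points are libraries, and black bars give the mean and SD of 3 libraries. Bax averaged 67.1 CPM in wild-type and 6.58 CPM in deficient cells, and Bak1 40.1 and 10.7 CPM.

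Across the transcriptome 22 of 13592 genes passed the threshold, which is 0.162% of genes tested: 11 were higher (0.0809%) and 11 lower (0.0809%) in deficient cells. A further measure of separation is whether all 3 libraries of a group lay above or below all 3 of the other. This held for 12.9% of genes, 6.64% higher and 6.22% lower in deficient cells. At an unadjusted p under 0.05 there were 833 genes (6.13%). DESeq2 called 142 of the 16425 genes it tested, and limma-voom with collection date as a random effect called 15 of 13592. The median log2 fold change of all genes was -0.02. In the plot of all genes tested, 1 called gene without a symbol lies at the far left.

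**Figure D2:**
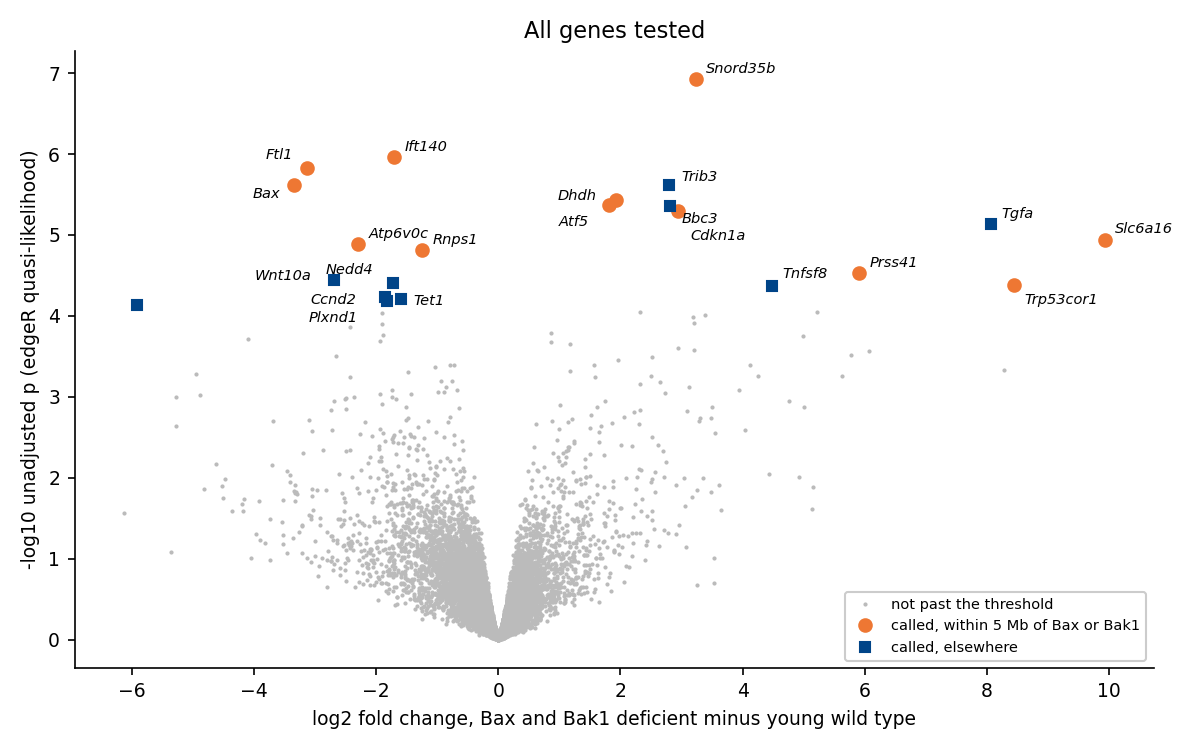
Each point is 1 of 13592 genes tested. The x axis gives the log2 fold change of deficient minus young wild-type cells and the y axis the -log10 of the unadjusted edgeR p. Orange circles are Bax and the 11 other called genes within 5 Mb of Bax or Bak1, and blue squares the called genes elsewhere. Snord35b has the smallest p.

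The cell cycle inhibitor p21 and the death initiator PUMA were among the clearest rises. Cdkn1a, which encodes p21, was at 3.53, 1.5 and 3.63 CPM in wild-type libraries and at 20.4, 21.6 and 23.5 CPM in deficient libraries. All 3 deficient libraries were several times above the highest wild-type library. The log2 fold change was 2.94 ± 0.37 (SE), with an adjusted p of 0.00753 by edgeR. Bbc3, which encodes the BH3-only protein PUMA, was at 5.59, 3.77 and 5.01 CPM in wild-type and 26.6, 26.5 and 46.8 CPM in deficient libraries. Its log2 fold change was 2.80 ± 0.35, with an edgeR adjusted p of 0.00743. In apoptosis-sensitive libraries Cdkn1a averaged 4.78 ± 1.84 CPM and Bbc3 5.91 ± 2.05 CPM (SD, n = 3). These means were somewhat above the wild-type means of 2.89 and 4.79 CPM and far below the deficient means of 21.9 and 33.3 CPM.

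Both genes are known direct targets of p53, the transcription factor that responds to DNA damage and other stress. The long noncoding RNA Trp53cor1 (lincRNA-p21), transcribed next to Cdkn1a and also a known p53 target, had 0 reads in every wild-type library and 2.83, 1.70 and 2.68 CPM in the deficient libraries. It was at least 40.7-fold higher in deficient cells, taking 3 reads over the wild-type group as the floor, with an edgeR adjusted p of 0.0326. That call was lost without any 1 of the 6 libraries, with adjusted p values from 0.0752 to 0.145. Phlda3, a p53 target that restrains AKT signalling, was singled out after its values were seen: 0 to 0.264 CPM in wild-type and 7.10, 5.39 and 9.13 CPM in deficient libraries, at an adjusted p of 0.0502 by edgeR. In apoptosis-sensitive libraries Trp53cor1 was at 0, 0.0588 and 0.234 CPM and Phlda3 at 0.282, 0.412 and 1.22 CPM. Both means were above wild type and well below the deficient libraries.

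The promoter windows of 2 of these p53-linked genes are shown because they hold the p53 recognition sequence. RefSeq windows of GRCm38.p6 run from 250 bases before to 50 bases after a gene's start. The p53 consensus was searched as 2 decamers with 0 to 13 bases between them and at most 1 mismatch in all, a form that reads alike on both strands. Matches may overlap, and the one with the shortest spacer is in capitals.

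Cdkn1a, upstream start, chr17:29090729-29091028, + strand: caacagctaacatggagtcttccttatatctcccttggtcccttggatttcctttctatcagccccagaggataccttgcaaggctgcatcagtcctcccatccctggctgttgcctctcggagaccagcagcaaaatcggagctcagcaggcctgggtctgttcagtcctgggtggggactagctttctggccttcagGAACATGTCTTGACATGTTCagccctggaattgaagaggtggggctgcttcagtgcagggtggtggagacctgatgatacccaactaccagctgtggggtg

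Bax, chr7:45466849-45467148, - strand: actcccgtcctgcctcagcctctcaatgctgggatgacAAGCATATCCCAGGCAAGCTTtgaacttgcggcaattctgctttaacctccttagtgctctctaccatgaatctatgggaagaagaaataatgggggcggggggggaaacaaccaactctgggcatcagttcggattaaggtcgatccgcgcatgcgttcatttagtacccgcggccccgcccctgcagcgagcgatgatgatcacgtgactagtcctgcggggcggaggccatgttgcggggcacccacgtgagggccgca

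The Cdkn1a match lies at -51 to -32 from that start and the Bax match at -212 to -192. Of 32851 such windows, 359, or 1.09%, held a match. Of the 26 tested genes of the p53 list, 19 had a window and 3 of these held a match (Cdkn1a, Ccng1 and Polk). The windows of Bbc3 held none. A match is a description of the letters and not a measurement of binding.

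The p53 list held 26 tested genes, without Bax. Only Cdkn1a and Bbc3 passed the threshold by edgeR, both higher, against 0.0809% of all genes called higher, and 24 did not. In 12 genes all deficient libraries lay above all wild-type libraries and in 2 below, 53.8% of the list in all against 12.9% of all genes. The median log2 fold change was 0.26, and it stayed between 0.22 and 0.32 when any 1 library was left out. Among the members that were separated without passing were Zmat3, an RNA-binding p53 target, with a log2 fold change of 1.0 ± 0.26, and Ccng1, encoding cyclin G1, with 0.71 ± 0.28. Fas, encoding the CD95 death receptor, was at 4.35, 3.34 and 4.95 CPM in wild-type and 7.66, 8.18 and 23.5 CPM in deficient libraries. Trp53 itself had a log2 fold change of -0.40 ± 0.16, with 153 to 219 CPM in wild-type and 129.7 to 138 CPM in deficient libraries, at an edgeR adjusted p of 0.758. Mdm2, the p53 target that encodes its ubiquitin ligase, was at 116 to 153 CPM in wild-type and 127 to 131 CPM in deficient libraries, inside the wild-type range. The named members that did not pass were chosen after their values were seen.

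Trib3 and Atf5, of the integrated stress response, also rose. In this response, kinases such as PERK, GCN2 and HRI phosphorylate eIF2alpha, translation of ATF4 is favoured and ATF4 switches on genes of amino acid supply and of adaptation. Trib3, a pseudokinase induced by ATF4 and CHOP, was at 1.56, 0.857 and 1.25 CPM in wild-type and 6.07, 9.27 and 9.99 CPM in deficient libraries. The lowest deficient library was well above the highest wild-type library. Its log2 fold change was 2.80 ± 0.33 (SE, n = 3 and 3), with an adjusted p of 0.00664 by edgeR. Atf5, a transcription factor controlled in the same way as ATF4 and linked to the mitochondrial stress response, was at 7.64, 7.49 and 9.56 CPM in wild-type and 24.0, 26.0 and 36.5 CPM in deficient libraries. The log2 fold change was 1.81 ± 0.23, with an edgeR adjusted p of 0.00743. Atf5 lies 645037 bases from Bax. A fit with collection date as a random effect (limma-voom) gave an adjusted p of 0.0863 for Atf5, and 0.0374 for Trib3.

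The promoter window of Trib3 is shown because it holds a core of the C/EBP-ATF response element, to which ATF4 is known to bind. The core was searched as TGATGNAA on both strands, and the match is in capitals.

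Trib3, chr2:152344011-152344310, - strand: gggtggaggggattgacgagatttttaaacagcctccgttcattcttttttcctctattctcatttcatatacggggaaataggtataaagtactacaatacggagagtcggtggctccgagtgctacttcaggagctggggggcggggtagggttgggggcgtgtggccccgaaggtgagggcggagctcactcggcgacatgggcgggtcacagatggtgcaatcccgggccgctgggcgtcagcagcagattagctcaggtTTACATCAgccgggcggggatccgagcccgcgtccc

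The match lies at 15 to 22 bases after the start, on the strand opposite to Trib3. Of all 32851 windows, 1304, or 3.97%, held this core. Of the 26 tested genes of the integrated stress response list, 22 had a window and 4 of these held it: Aars, Asns, Chac1 and Trib3.

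Of those 26 tested genes, Trib3 and Atf5 passed the threshold, both higher, against 0.0809% of all genes called higher, and 24 did not. In 12 genes the deficient libraries lay above all wild-type libraries and in 0 below, against 6.64% and 6.22% of all genes. The median log2 fold change was 0.40, with 0.33 to 0.43 when any 1 library was left out. Separated members that did not pass, named after their values were seen, included the transfer RNA synthetases Aars (log2 fold change 0.66 ± 0.21) and Sars (0.62 ± 0.24), the amino acid transporter subunit Slc7a5 (0.87 ± 0.43), the mitochondrial folate enzyme Mthfd2 (0.75 ± 0.30) and Ddit3, encoding CHOP (0.43 ± 0.30). RNA of Atf4 itself overlapped between the groups, at 137 to 305 CPM in wild-type and 145 to 265 CPM in deficient libraries. The 18 tested genes of the endoplasmic reticulum unfolded protein response had a median log2 fold change of 0.11. By edgeR, by the other tools or at an unadjusted p under 0.05, 0 passed. Of these 18 genes 3 were separated higher and 2 lower, 27.8% in all against 12.9% of all genes. In the plot of single genes by group, the apoptosis-sensitive libraries lie nearer the wild-type than the deficient ones for Trib3, Atf5, Bbc3 and Cdkn1a. For Cdkn1a they were at 3.16, 4.41 and 6.78 CPM, partly above the wild-type range.

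**Figure D3:**
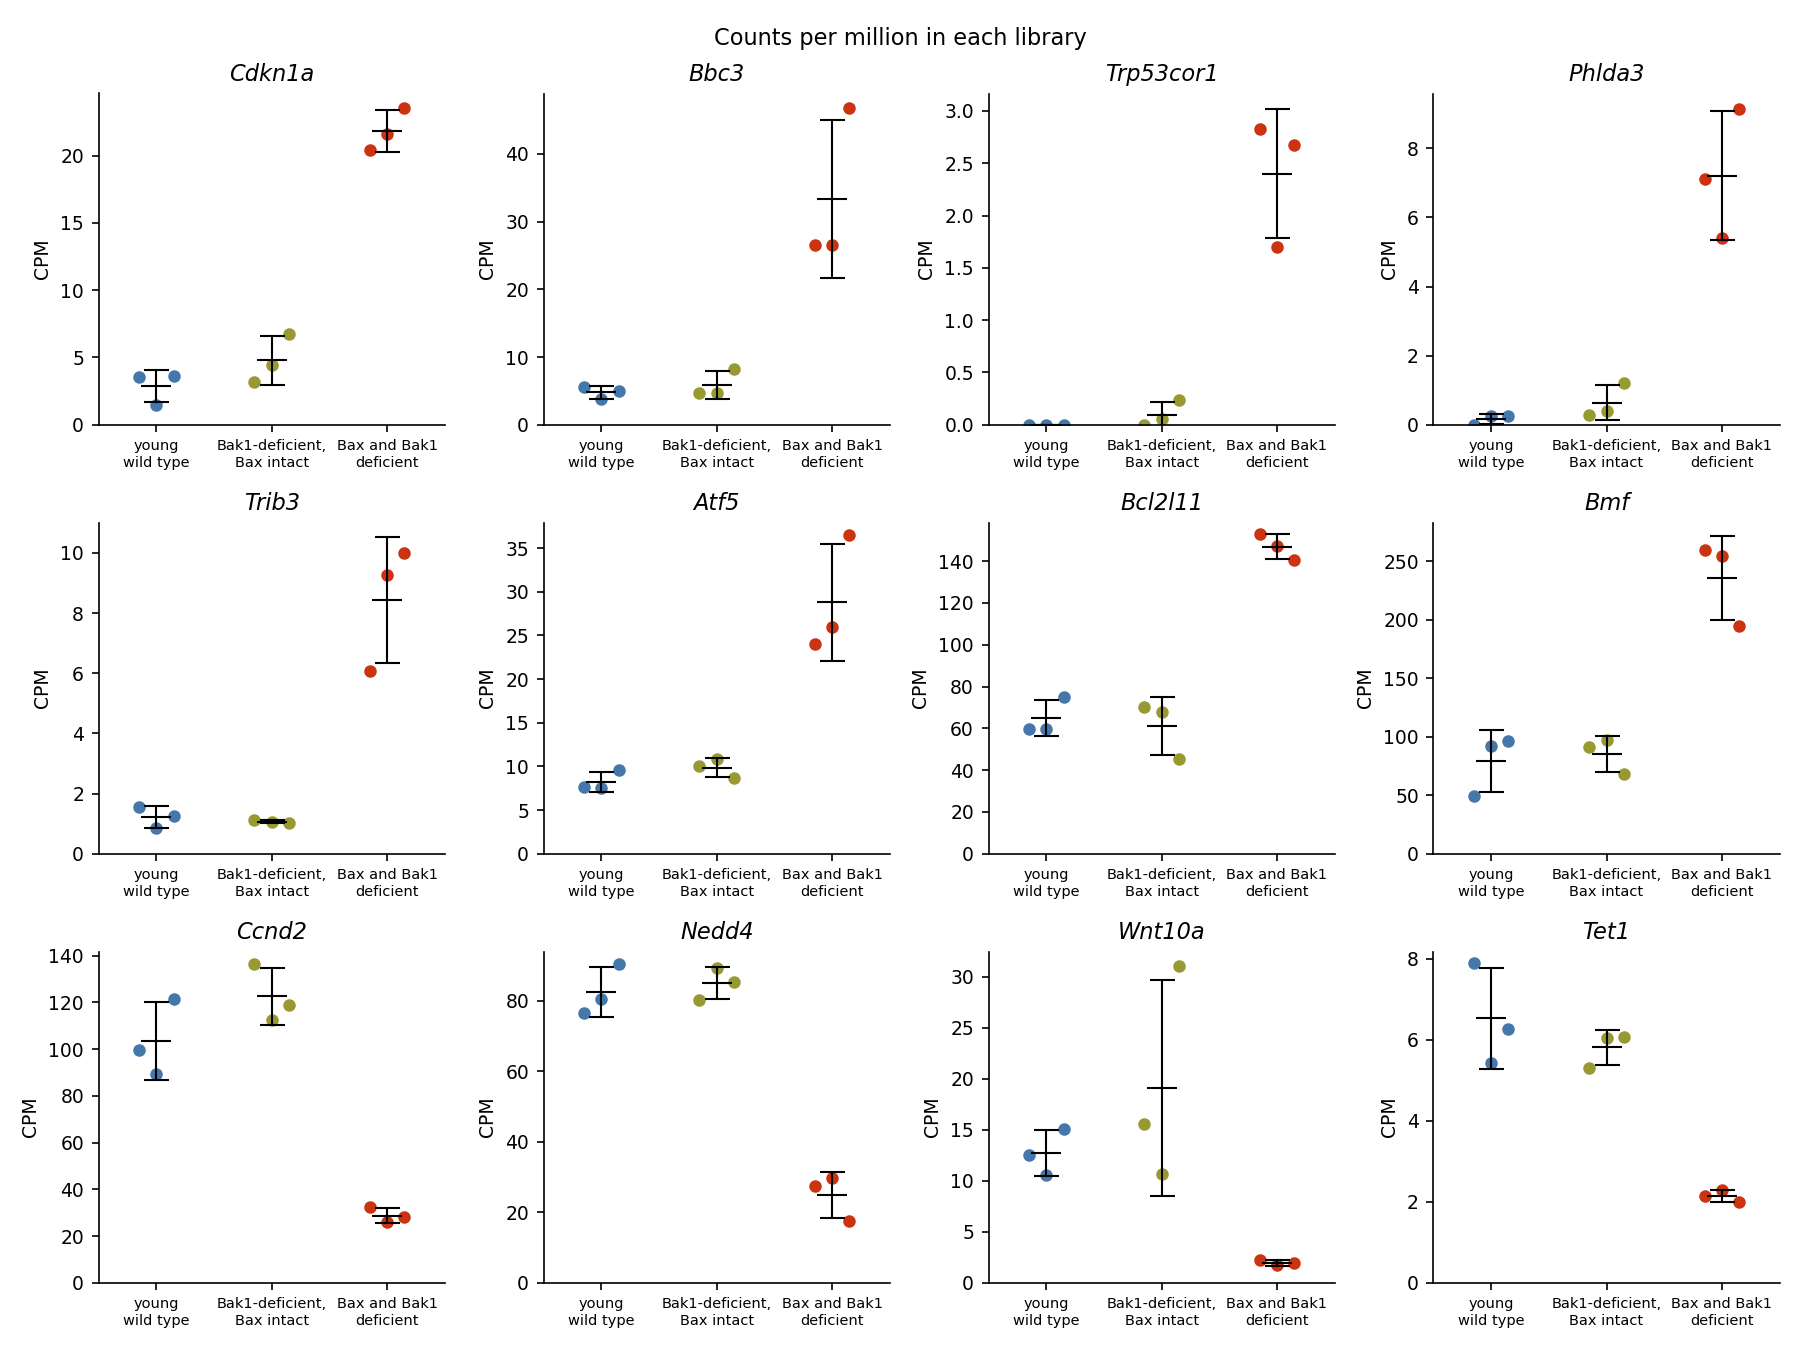
CPM of 12 genes in each library of the 3 groups. Points are libraries, and black bars give the mean and SD of 3 libraries. In the first 8 panels the deficient libraries lie above all wild-type libraries, and in the last 4 (Ccnd2, Nedd4, Wnt10a, Tet1) below. Phlda3, Bcl2l11 and Bmf did not pass the threshold.

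Within the BCL-2 family, Bbc3 rose, and the levels of several survival genes were lower without passing the test. Besides Bbc3, 2 other BH3-only genes were separated without passing. Bcl2l11, encoding BIM, was at 59.9, 59.9 and 75.1 CPM in wild-type and 153, 147 and 141 CPM in deficient libraries, a log2 fold change of 1.18 ± 0.22 at an edgeR adjusted p of 0.0805. Bmf, encoding the BMF protein known to respond to loss of attachment and of survival signals, was at 49.1, 91.9 and 96.7 CPM in wild-type and 259, 254 and 195 CPM in deficient libraries. Its log2 fold change was 1.57 ± 0.32, at an adjusted p of 0.116 by edgeR. For both genes the highest wild-type library was well below the lowest deficient one, and the apoptosis-sensitive libraries stayed at or under 97.1 CPM. Over the 8 tested BH3-only genes the median log2 fold change was 0.64, with 1 passing, against 0.162% of all genes, and 3 separated, all higher, against 6.64% of all genes. Bcl2l11 and Bmf were chosen after their values were seen.

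Among the 7 tested anti-apoptotic genes 0 passed by edgeR or limma-voom. At an unadjusted p under 0.05 there was 1, against 6.13% of all genes, and DESeq2 called 1, against 142 of 16425 genes. In 3 genes the groups were separated, all lower, against 6.22% of all genes. Bcl2, the founding member, was at 188, 152 and 181 CPM in wild-type and 88.2, 113.6 and 69.0 CPM in deficient libraries, a log2 fold change of -0.94 ± 0.21 at an edgeR adjusted p of 0.145. Mcl1, on which B cells are known to depend, had a log2 fold change of -0.39 ± 0.18 at an adjusted p of 0.811. The 8 listed genes together summed to 1639, 1491 and 1482 CPM in wild-type and 1094, 1172 and 1147 CPM in deficient libraries. The list's median log2 fold change was nonetheless 0.13, with positive values for Bcl2l1 and for the 3 Bcl2a1 copies, whose reads cannot be fully told apart, and it ran from -0.39 to 0.38 when 1 library was left out. Downstream of the pores, 0 of 16 genes of the apoptosome and executioner caspases passed by edgeR, DESeq2 or limma-voom, with a median of -0.10. At an unadjusted p under 0.05 there was 1, against 6.13% of all genes.

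Ccnd2, Nedd4 and Wnt10a, which lie away from the deleted genes, were lower in deficient cells. Ccnd2, encoding cyclin D2, a D-type cyclin that drives mature B cells into the cell cycle, was at 99.5, 89.3 and 122 CPM in wild-type and 32.5, 25.8 and 28.0 CPM in deficient libraries. The groups were separated by a wide gap. The log2 fold change was -1.85 ± 0.30, with an adjusted p of 0.0414 by edgeR. Nedd4, a HECT-type ubiquitin ligase, was at 76.6, 80.6 and 90.4 CPM in wild-type and 27.5, 29.8 and 17.6 CPM in deficient libraries, with a log2 fold change of -1.73 ± 0.27 and an adjusted p of 0.0326. Wnt10a, a secreted WNT ligand, was at 12.6, 10.6 and 15 CPM against 2.28, 1.70 and 1.91 CPM, with a log2 fold change of -2.70 ± 0.42 and an edgeR adjusted p of 0.0326. In apoptosis-sensitive cells these 3 genes averaged 123 ± 12.3, 85.0 ± 4.52 and 19.1 ± 10.6 CPM (SD, n = 3), at or above the wild-type means.

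Tet1, which encodes an enzyme that oxidises 5-methylcytosine, fell from 6.53 ± 1.25 to 2.15 ± 0.15 CPM (SD, n = 3), with an adjusted p of 0.0414 by edgeR. Plxnd1, a semaphorin receptor, fell from 38.6 ± 15.6 to 11.0 ± 2.48 CPM, with an adjusted p of 0.0425. The 2 other called rises were signalling molecules at low levels. Tgfa, a ligand of the epidermal growth factor receptor, had 2 reads in the whole wild-type group and 7.79, 6.30 and 22.0 CPM in the deficient libraries. The ratio was 330.4, with a counting interval of 91.1 to 2734, and the edgeR adjusted p was 0.00994. Tnfsf8, encoding the CD30 ligand, was at 0 to 0.247 CPM in wild-type and 3.10, 3.39 and 2.63 CPM in deficient libraries, with an adjusted p of 0.0326 by edgeR. In apoptosis-sensitive libraries Tgfa averaged 0.264 CPM and Tnfsf8 0.421 CPM, against wild-type means of 0.0286 and 0.148 CPM.

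Cdkn1a, Bbc3, Trib3 and Atf5 each passed the edgeR threshold when any 1 of the 6 libraries was left out. Ccnd2, Nedd4 and Tet1 missed it without any 1 library, with adjusted p values from 0.0571 to 0.242, 0.0546 to 0.181 and 0.0619 to 0.238. Wnt10a passed only without wild-type replicate 2 and otherwise reached 0.215. Tnfsf8 and Plxnd1 also passed only without wild-type replicate 2, and otherwise reached 0.140 and 0.238. Tgfa missed it without wild-type replicate 3, at 0.0646. With collection date as a random effect in limma-voom, Cdkn1a, Bbc3, Trib3 and Nedd4 passed, at 0.0176, 0.0176, 0.0374 and 0.0419. Atf5, Tgfa, Tnfsf8, Ccnd2, Tet1, Plxnd1 and Wnt10a did not, at 0.0863, 0.235, 0.0863, 0.152, 0.293, 0.457 and 0.464. In an edgeR fit of the 6 libraries alone, which has fewer degrees of freedom, Bbc3, Wnt10a, Ccnd2 and Tgfa passed, at 0.0458, 0.0458, 0.0458 and 0.0479. Cdkn1a, Trib3, Atf5 and Nedd4 just missed the threshold there, at 0.0566, 0.0660, 0.0660 and 0.0660. Tnfsf8, Tet1 and Plxnd1 missed it by more, at 0.201, 0.216 and 0.228.

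Called genes were more frequent near Bax and Bak1 than elsewhere, which is given as a description with no test. Of 302 tested genes within 5 Mb of Bax or Bak1, 11 passed the edgeR threshold (3.64%), against 10 of 13288 elsewhere (0.0753%). The 11 leave out Bax itself and include Atf5, Cdkn1a and Trp53cor1, the last pair at 2062352 and 2028847 bases from Bak1. Around Bax 5 of 115 genes passed (4.35%) and around Bak1 6 of 187 (3.21%). Separation of the groups held for 24.2% of genes in these windows and for 12.6% elsewhere. Genes without a position, 1 of them called, were counted as lying elsewhere. With windows of 2 Mb, a size chosen after the data had been seen, 6 called genes lay inside. The plot of fold change by distance shows called genes on both sides of 0 around each gene.

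**Figure D4:**
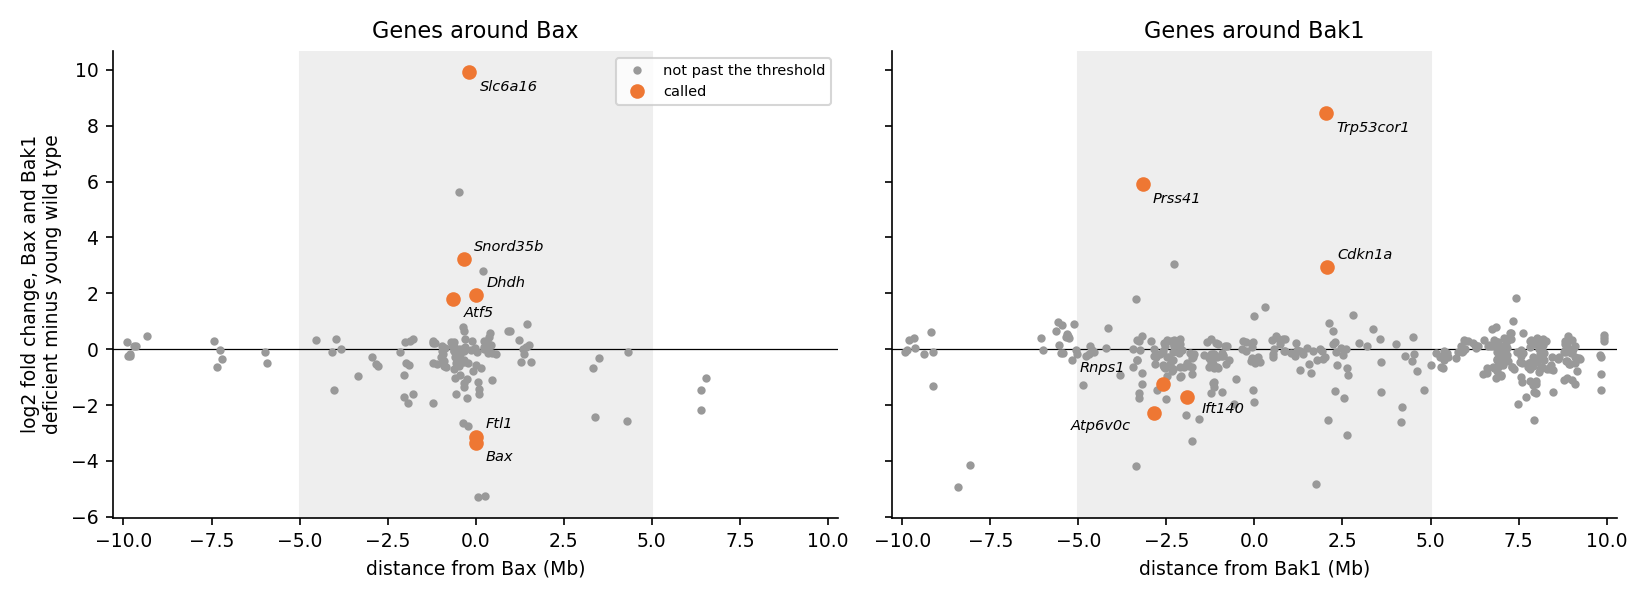
Log2 fold change of deficient minus young wild-type cells for tested genes within 10 Mb of Bax (left) and Bak1 (right), against distance in Mb. Grey shading marks 5 Mb to either side, and orange points are called genes. Bax and Ftl1 lie together near a log2 fold change of -3 in the left panel.

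Next to Bax, Ftl1 and Dhdh moved in opposite directions. Ftl1, the ferritin light chain gene, 1809 bases from Bax, was at 72.4, 82.9 and 84.9 CPM in wild-type and 5.52, 8.67 and 13.2 CPM in deficient libraries. It was 8.43-fold lower, with an adjusted p of 0.00664 by edgeR. The apoptosis-sensitive libraries lay between the groups, at 42.6, 40.5 and 27.9 CPM. Ftl1-ps2, a ferritin light chain pseudogene singled out after its values were seen, was at 0.493 to 1.19 CPM in wild-type and 6.42 to 8.83 CPM in deficient libraries, at an adjusted p of 0.0590 by edgeR. In the apoptosis-sensitive libraries it was at 4.06, 4.76 and 13.3 CPM, all above wild type and to both sides of the deficient range. Reads of near-identical ferritin copies can be divided among them in counting, so the levels of both are uncertain.

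Dhdh, encoding dimeric dihydrodiol dehydrogenase, 6053 bases from Bax, was at 7.23, 5.40 and 4.62 CPM in wild-type and 22.8, 23.5 and 19.2 CPM in deficient libraries, with a log2 fold change of 1.93 ± 0.24 and an adjusted p of 0.00743 by edgeR (0.0566 in a fit of the 6 libraries alone). The apoptosis-sensitive cells, at 18.5 ± 1.36 CPM (SD, n = 3), were near the deficient cells here and not near the wild type. Snord35b, a small nucleolar RNA, was at 8.79, 7.54 and 9.43 CPM in wild-type and 68.3, 74.7 and 99.0 CPM in deficient libraries, with 30.2, 31.1 and 59.5 CPM in apoptosis-sensitive ones. Its adjusted p, 0.00160 by edgeR, was the lowest of the comparison. Slc6a16, a transporter-family gene, had 0 reads in the wild-type group and 4.35, 9.33 and 6.40 CPM in deficient libraries, at least 114-fold higher, with 3.24 ± 1.17 CPM in apoptosis-sensitive cells. Its edgeR adjusted p was 0.0141, and it missed the threshold without deficient replicate 2 (0.0585) or 3 (0.0540).

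Around Bak1, Ift140, Atp6v0c and Rnps1 were lower in deficient cells and Prss41 was higher. Ift140, a component of the transport machinery of cilia, was at 213, 175 and 152 CPM in wild-type and 60.7, 56.6 and 48.6 CPM in deficient libraries, with a log2 fold change of -1.70 ± 0.19 and an adjusted p of 0.00664 by edgeR. Atp6v0c, a subunit of the vacuolar proton pump, fell from 27.0 ± 5.72 to 5.52 ± 1.20 CPM, and Rnps1, an RNA-splicing factor, from 60.4 ± 14.3 to 25.4 ± 0.87 CPM (SD, n = 3), with adjusted p values of 0.0147 and 0.0162. Prss41, a serine protease gene, had 2 wild-type reads and 2.73 ± 0.87 CPM in deficient cells, a ratio of 71.7 with a counting interval of 19.5 to 598 and an edgeR adjusted p of 0.0288. In apoptosis-sensitive cells these 4 genes averaged 84.4, 8.0, 28.6 and 1.68 CPM, on the deficient side of every wild-type library. The Prss41 call was lost without any 1 of the 6 libraries, with edgeR adjusted p values from 0.0719 to 0.128. Those of Atp6v0c and Rnps1 were lost without any 1 deficient library, and that of Atp6v0c also without wild-type replicate 3. Their adjusted p values reached 0.105 and 0.140. By limma-voom with date, Ift140 and Atp6v0c passed, at 0.0176 and 0.0289, and Rnps1 and Prss41 did not, at 0.0708 and 0.191. In the edgeR fit of 6 libraries only Rnps1 of the 4 missed the threshold, at 0.170. Reads of Ift140 and Tmem204, of Dhdh and Tulp2, and of Atf5 and Nup62 may be mixed, since these genes overlap and the strand setting was not given. Reads of Snord35b may be mixed in the same way, as it overlaps another gene.

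By edgeR 0 genes passed between apoptosis-sensitive and wild-type cells, with 371 of 13592 at an unadjusted p under 0.05 and a lowest adjusted p of 0.0533. The comparison of deficient with apoptosis-sensitive cells gave 6 calls, or 0.0441% of genes. These comparisons share libraries with the one described here, so their values are placed side by side and the share of common genes is not used. Against the apoptosis-sensitive cells, which were collected on the same dates, the log2 fold change was 2.97 for Trib3, 1.55 for Atf5, 2.49 for Bbc3, -2.09 for Ccnd2 and -3.28 for Wnt10a. It was 2.19 for Cdkn1a and -1.77 for Nedd4, at edgeR adjusted p values of 0.0843 and 0.0598, and 0.24 for Dhdh and -0.17 for Rnps1, both at an adjusted p of 1.

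Genes of G2 and mitosis were lower by value, while those of G1 went both ways. Of the 18 genes of G1 cyclins and their inhibitors, 8 had a positive and 10 a negative log2 fold change. Ccnd2 passed lower and Cdkn1a higher, each direction against 0.0809% of all genes. In this list 6 genes were separated lower and 2 higher, against 6.22% and 6.64% of all genes. Among those lower were E2f1, the transcription factor of S phase entry, at a log2 fold change of -1.43 ± 0.38, and Cdk6, a partner of D-type cyclins, at -1.35 ± 0.38. All 22 tested genes of G2 and mitosis had a negative log2 fold change, with a median of -1.21. By edgeR and by limma-voom 0 passed. At an unadjusted p under 0.05 there were 12, against 6.13% of all genes, and DESeq2 called 3, against 142 of 16425 genes. Of the list 2 were separated, which is 9.09% against 12.9% of all genes. Mki67, a proliferation marker, was at 144.5, 49.0 and 235 CPM in wild-type and 30.3, 19.6 and 61.3 CPM in deficient libraries, so the groups overlapped. The list's median was -0.60 without wild-type replicate 3, the library with the high granulocyte and erythroid sums, and -1.93 without deficient replicate 3. The part of those other cells in the difference was not tested. Among the 22 S phase genes 0 passed by edgeR or limma-voom. At an unadjusted p under 0.05 there were 6, against 6.13% of all genes, and DESeq2 called 1, against 142 of 16425 genes. In this list 3 genes were separated, all lower, which is 13.6% against 12.9% of all genes. Uhrf1, whose protein takes part in the copying of DNA methylation at replication forks, came nearest, with an adjusted p of 0.0502 by edgeR. Its level was 50.4, 27.4 and 51.8 CPM in wild-type and 9.86, 8.67 and 16.1 CPM in deficient libraries.

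Genes of the BAFF receptor and noncanonical NF-kB pathway, which carries a survival signal of mature B cells, had a median log2 fold change of -0.34 over 13 genes. By edgeR and by limma-voom 0 passed. At an unadjusted p under 0.05 there were 4, against 6.13% of all genes, and DESeq2 called 1, against 142 of 16425 genes. Of the list 6 were separated, all lower, against 6.22% of all genes. Nfkb2, encoding the p100 precursor, was at 655, 475.5 and 456 CPM in wild-type and 277, 282 and 218 CPM in deficient libraries, a log2 fold change of -1.03 ± 0.21 at an adjusted p of 0.120. Relb had a log2 fold change of -0.34 ± 0.15, and Cr2, encoding complement receptor CD21, -0.68 ± 0.34. The 24 genes of canonical NF-kB subunits and targets had a median of -0.31, with 7 separated lower and 2 higher, against 6.22% and 6.64% of all genes. By edgeR and by limma-voom 0 of these passed. At an unadjusted p under 0.05 there were 5 and DESeq2 called 1, against the same shares of all genes. Bcl3, an atypical inhibitor of NF-kB, came nearest at -0.78 ± 0.16 with an adjusted p of 0.116.

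Germinal centre and switched immunoglobulin genes were higher by value without passing the edgeR test. The 13 germinal centre genes had a median log2 fold change of 1.43, with 0 passing by edgeR or limma-voom. At an unadjusted p under 0.05 there were 8, against 6.13% of all genes, and DESeq2 called 2, against 142 of 16425 genes. Of these genes 6 were separated, all higher, against 6.64% of all genes. S1pr2, a receptor that holds B cells in germinal centres, was at 1.48 to 2.97 CPM in wild-type and 3.17, 3.45 and 30.3 CPM in deficient libraries. Deficient replicate 3 was far above the other deficient libraries, and without it the list's median was 0.48. Ighg1, the IgG1 constant region, was at 0.411, 11.0 and 12.9 CPM in wild-type and 126, 57.6 and 196 CPM in deficient libraries, a log2 fold change of 3.95 ± 0.88 at an edgeR adjusted p of 0.168. Of the 12 constant region genes 0 passed by edgeR or limma-voom. At an unadjusted p under 0.05 there were 3, against 6.13% of all genes, and DESeq2 called 2, against 142 of 16425 genes. In this list 6 genes were separated, all higher, against 6.64% of all genes. The median log2 fold change was 1.05, with 0.20 to 1.55 when any 1 library was left out. Ighm, the IgM constant region of the sorted cells, overlapped between the groups.

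Several other programmes had 0 genes called by edgeR, DESeq2 or limma-voom and 0 to 1 at an unadjusted p under 0.05 in each list. Of 30 interferon-stimulated genes 0 were separated or called, with a median of -0.12, and of 13 MHC class II presentation genes 0 were separated, with a median of 0.15. The 23 genes of B cell receptor signalling had a median of 0.02, with 4 separated (17.4%, against 12.9% of all genes), and the 35 nuclear respiratory chain genes one of 0.24, with 1 separated. The 13 mitochondrially encoded genes had a median of -0.12 and 0 separated. The plot of the lists shows that G2 and mitosis, germinal centre and immunoglobulin constant region genes had the widest ranges when 1 library was left out.

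**Figure D5:**
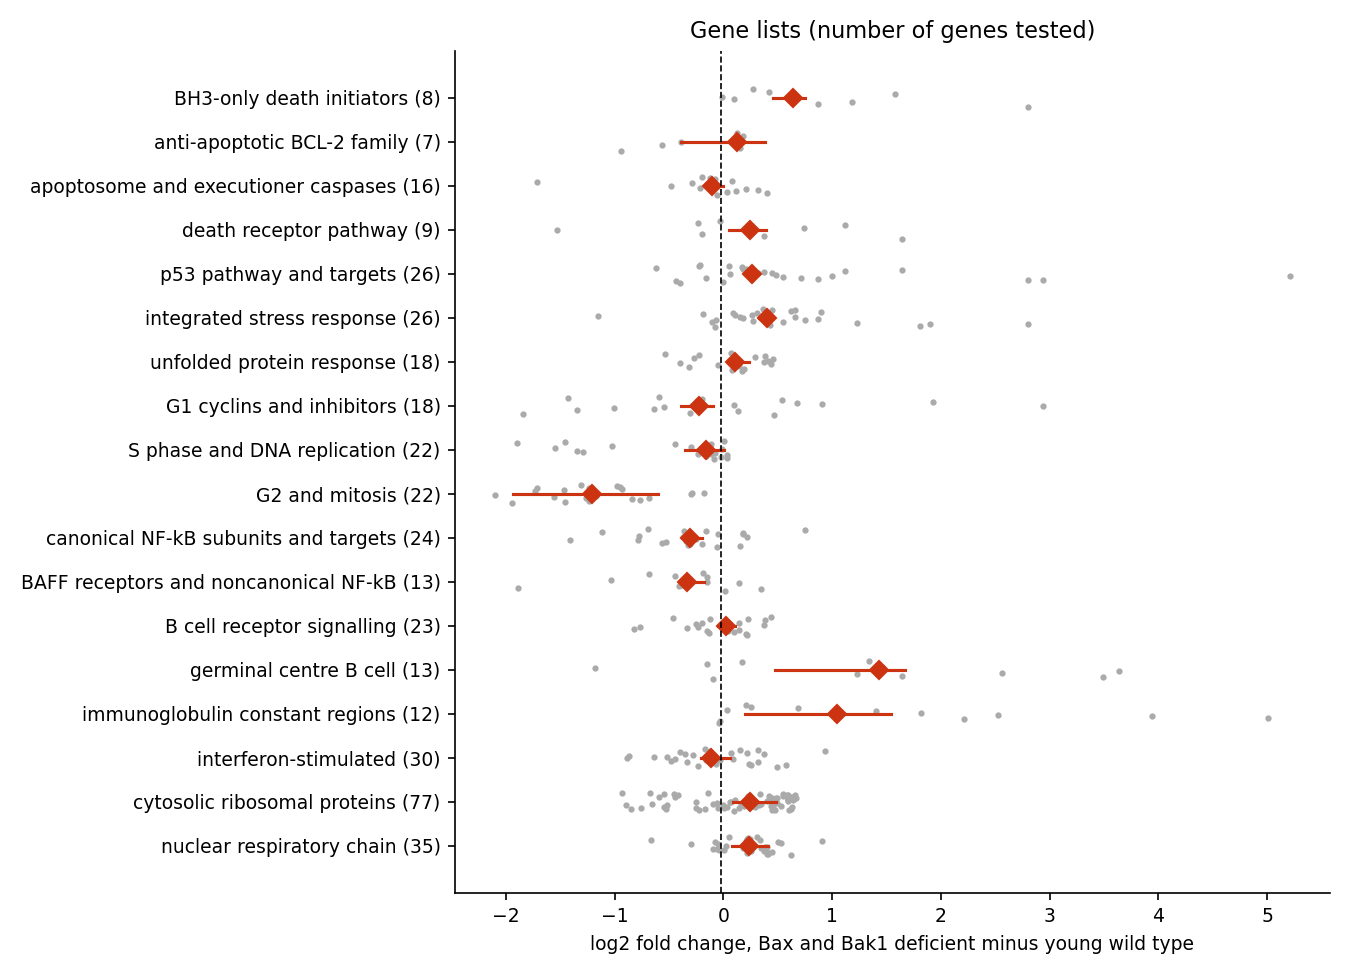
Log2 fold change of deficient minus young wild-type cells for the tested genes of 18 lists. Grey points are genes, red diamonds the list medians, and red lines the range of the median when any 1 of the 6 libraries is left out. The dashed line is the median of all genes, -0.02.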

How the data were processed

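RNA of 12 libraries was counted per gene. The authors deposited whole-number read counts in 1 table, made with Subread and featureCounts on the mouse build mm10, per the submitters' processing notes. Versions, gene models, strand setting and filters are not stated in the labels used here. RNA was polyadenylated, with Illumina TruSeq v2 libraries, per the labels' protocols. The table had 27179 genes by Entrez number, and the RefSeq annotation of GRCm38.p6 gave 25275 of them a symbol. Total counts ran from 13474162 to 23539764 per library, which sets the counting error. The series design calls the libraries of a group biological replicates, and p values measure only the spread between them.

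TMM factors, filterByExpr (minimum 10 reads) and the robust quasi-likelihood test of edgeR 4.0.16 (R 4.3.3) were used on all 12 libraries by group, with 8 residual degrees of freedom and 13592 genes tested. These degrees of freedom take the libraries as independent. The deficient libraries shared dates with the apoptosis-sensitive ones, and the young wild-type libraries with the old ones. In the limma-voom fit the consensus correlation of libraries of a shared date was 0.712. The spread thus rests on less independent information than 8 degrees of freedom assume. CPM values use TMM. Alternatives were DESeq2 1.42.0, limma 3.58.1 (voom) with date as a random effect, other scalings and filters, a fit of 6 libraries, and leaving out each library. The fit was run on simulated counts drawn independently for each library, with no effect of date, so it does not measure the error rate under shared dates. It recovered 25.4%, 83.6% and 97% of simulated log2 fold changes of 1, 2 and 3 in size. A group with 0 reads was given a floor of 3 reads, and counting intervals are exact at 95% and cover counting error only.

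The comparison, its members and its 49 lists (742 genes, 713 tested, 2 not in the table) were chosen with earlier results of these data known. The rule for named genes took Bax and Bak1, the 10 largest rises and falls and the 5 smallest p in each direction among called genes of at least 1 CPM whose groups did not overlap, up to 4 called members of each list or else the 2 of smallest p, and 5 genes called in earlier results. Antigen receptor segments, predicted genes and those lacking a symbol were counted only. Some genes that the rule names are not reported here. Genes outside the rule were chosen after their values were seen, among them Ms4a1, Phlda3, Bcl2l11, Bmf, E2f1, Cdk6, Mki67, S1pr2, Relb, Cr2, Ftl1-ps2, Wnt10b, Il9r and the members of the p53 and stress lists that the text says so of.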

Additional observations from a re-analysis of the deposited data

How the results depend on the processing

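The 22 calls became 12 with only the 6 libraries compared (5 higher, 7 lower), 34 with no filter on low counts (18 higher), 48 with the replicate block (32 lower), 14 by glmTreat against a fold of 1.5 (4 lower), 142 by DESeq2 (65 higher, 77 lower, with all 22 kept) and 15 by limma-voom with collection date as a random effect (6 lower, with 12 of the 22 kept). Leaving out 1 library gave 10 to 20 calls, 7 to 9 of them higher and 3 to 11 lower. The share of calls that were higher moved from 50% to 33.3% with the block, 64.0% without the 24 March libraries, 71.4% by glmTreat and 60.0% by limma-voom. The 11 calls around Bax and Bak1 became 7 with 6 libraries, 26 by DESeq2, 6 in windows of 2 Mb, a size chosen after seeing the data, and 6 to 10 without 1 library. The 10 calls elsewhere became 4 with 6 libraries, 21 with no filter, 15 without the robust fit and 15 outside windows of 2 Mb, 32 with the block, 3 by glmTreat, 114 by DESeq2, 5 by limma-voom and 2 to 9 without 1 library. The causes were not tested. Bax kept its call throughout, with -3.53 to -2.93 without 1 library. Bak1 ran from -2.18 to -1.66 without 1 library, and it passed with no filter (-1.88), with the block (-1.93), without the 24 March libraries (-2.03), by DESeq2 (-1.90) and by limma-voom (-1.98). Same-numbered libraries did not deviate together (r = -0.0463, -0.000318 and 0.0964), so the numbers do not pair the samples, and the replicate block is given only for its count.

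Among single genes, none of which passed the threshold, the direction reversed for Mpo (0.35 without wild-type replicate 3), Siglech (-0.47 without deficient replicate 3) and, without the 24 March libraries and without wild-type replicate 1, for Gsdmd (0.13 and 0.13), Eif2s3y (0.14 and 0.14), ND1 (0.26 and 0.26), Atf4 (0.42 and 0.42) and Itga2b (0.53 and 0.53). Atf4 also reversed without deficient replicate 1 (0.067) or 2 (0.055), and Itga2b with the block (0.036), by limma-voom (0.083) and without deficient replicate 1 (0.031). Mdm2, at 0.00 to 2 decimals, became 0.0020 with RLE and 0.016 with upper quartile scaling, 0.034 with no filter, 0.0085 with the block, 0.0026 without immunoglobulin genes, 0.16 without the 24 March libraries, 0.0054 by DESeq2, 0.0051 by limma-voom, 0.025 without deficient replicate 3 and 0.15 without wild-type replicate 1. Without 1 library at a time the lowest values of these genes were -3.75 for Mpo, -0.82 for Gsdmd, -0.68 for Eif2s3y, -0.57 for ND1, -0.67 for Itga2b, -0.40 for Atf4 and -0.090 for Mdm2. Depth and 3 libraries a group limit what could be detected.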

Other observations

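Most genes of the memory B cell list were lower by value, and 2 of its surface genes were higher. Of 13 tested genes 3 had a positive and 10 a negative log2 fold change, with a median of -0.27. By edgeR and by limma-voom 0 passed. At an unadjusted p under 0.05 there were 4, against 6.13% of all genes, and DESeq2 called 2, against 142 of 16425 genes. Of the list 3 were separated lower and 2 higher, against 6.22% and 6.64% of all genes. Nt5e, which encodes the ecto-enzyme CD73, was at 2.14, 1.97 and 3.96 CPM in wild-type and 13.8, 12.8 and 46.8 CPM in deficient libraries, with an edgeR adjusted p of 0.0522. The groups did not overlap, and deficient replicate 3 was the highest. Cd80, a costimulatory ligand, was at 2.48 to 2.96 CPM in wild-type and 6.35, 7.70 and 10.5 CPM in deficient libraries, with an adjusted p of 0.207 by edgeR. Cxcr3, a chemokine receptor of the list of homing receptors and integrins, was at 0, 1.11 and 2.70 CPM in wild-type and 4.14, 3.88 and 17.4 CPM in deficient libraries.

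A pair of further genes with lower values were noticed after the data had been seen. Wnt10b, a WNT ligand related to Wnt10a, was at 39.9, 7.92 and 9.43 CPM in wild-type and 1.17, 0.909 and 1.24 CPM in deficient libraries, with an adjusted p of 0.0776 by edgeR. Il9r, the receptor subunit of interleukin 9, was at 259, 149 and 116 CPM in wild-type and 47.5, 44.0 and 50.5 CPM in deficient libraries, with an edgeR adjusted p of 0.0730. For both genes wild-type replicate 1 was the highest library.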
